A study of Mus musculus with 96 samples.

Results

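Cytosolic LbNOX was compared with GFP in differentiated C2C12 myotubes that had received no mitochondrial inhibitor. The comparison rested on 5 of the 96 RNA-seq samples of the series, 3 LbNOX and 2 GFP samples, which were taken by their labels. C2C12 is a mouse myoblast line whose cells stop dividing and fuse into multinucleated myotubes in low serum. All 5 cultures had spent 4 days in low serum and received adenovirus 48 hr after the switch to it, and all were exposed for 10 hr to DMSO, the solvent of the inhibitors used elsewhere in the series. The GFP samples carried a human adenovirus type 5 that expresses eGFP alone, and the LbNOX samples carried one that expresses eGFP together with LbNOX, given at equal nominal particle numbers per well. The viruses therefore differed in more than the enzyme, and LbNOX, the vector that carries it and the amount of viral transcript cannot be told apart in this design. The labels give no culture or day of origin for the replicates, so the p-values below measure the spread between libraries, which may be technical. For the main comparison that spread was estimated from all 15 transduced myotube libraries, including those given a mitochondrial inhibitor.

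LbNOX is a water-forming NADH oxidase from Lactobacillus brevis. It transfers electrons from cytosolic NADH to oxygen and so regenerates NAD+ without the respiratory chain. Cells otherwise reoxidize cytosolic NADH by lactate dehydrogenase, which turns pyruvate into lactate, or by the malate-aspartate and glycerol-3-phosphate shuttles, which pass the electrons into mitochondria. The comparison asks which transcripts differ when this oxidase is added to myotubes at rest. One set of transcripts given in detail below is that of hypoxia-inducible factor (HIF), a transcription factor that is destroyed when prolyl hydroxylases use oxygen to modify it and that turns on glycolytic enzymes and genes of adaptation to low oxygen when oxygen is scarce.

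The 5 libraries held 8708933 to 10044896 counts each, within the range of 6458295 to 15366745 counts of all 96. Cell identity followed the labels. The summed level of 8 myotube markers was 14644 to 15265 CPM (each gene's counts relative to the library total, after TMM scaling) in the GFP samples and 14874 to 15734 CPM in the LbNOX samples, against 17.5 to 25.1 CPM in myoblasts. The 7 markers of cycling myoblasts summed to 162 to 174 CPM with GFP and 158 to 167 CPM with LbNOX, and 4 leukocyte markers to at most 3.04 CPM in any of the 5 libraries. The 5 markers listed for fibroblast-like or undifferentiated cells summed to 4253 to 4424 CPM with GFP and 4292 to 4636 CPM with LbNOX, ranges that overlapped. Most of that sum was Col3a1 (3979 to 4117 CPM with GFP and 3976 to 4305 CPM with LbNOX), while Pdgfra was at 5.21 to 7.10 CPM and Fap at 0.0972 to 0.660 CPM in the 5 libraries. The longer list of extracellular matrix and undifferentiated cell genes did not overlap between the groups. Its averaged level was 7.89 and 7.95 with GFP and 7.96 to 8.04 with LbNOX as log2(CPM + 1), and its part in the results below was not tested. In bulk RNA, fewer cells of a type and less RNA per cell cannot be told apart. GFP replicate 1 was the only one of the 5 from a plate code that reads as an outer well.

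The transgenes followed the labels. LbNOX had 0 counts in both GFP libraries and in the 3 untransduced libraries, and stood at 7910, 7734 and 7519 CPM in the LbNOX libraries. Its mean was 7721 ± 196 CPM (SD, n = 3), at least 24726-fold higher than the floor of 3 counts per library set for the GFP samples. The eGFP transcript also differed. It stood at 7781 and 7280 CPM in the GFP samples and at 2494, 2515 and 2343 CPM in the LbNOX samples, so that the group means, 7531 ± 354 (SD, n = 2) and 2451 ± 93.6 CPM (SD, n = 3), lay 3.07-fold apart with no overlap. In an exact two-sided permutation test of 3 against 2 libraries each difference gave p = 0.1, the smallest value this design allows. LbNOX and eGFP together took 0.760 to 0.799% of all counts with GFP and 0.978 to 1.06% with LbNOX. The same pattern was seen with the other treatments of the same design, where eGFP was 2.86-fold higher with GFP than with LbNOX under piericidin and 3.14-fold higher under oligomycin. Piericidin inhibits complex I of the respiratory chain and oligomycin the ATP synthase. LbNOX reached 6123 ± 245 CPM under piericidin and 12190 ± 47.1 CPM under oligomycin (SD, n = 3 each).

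**Figure D1:**
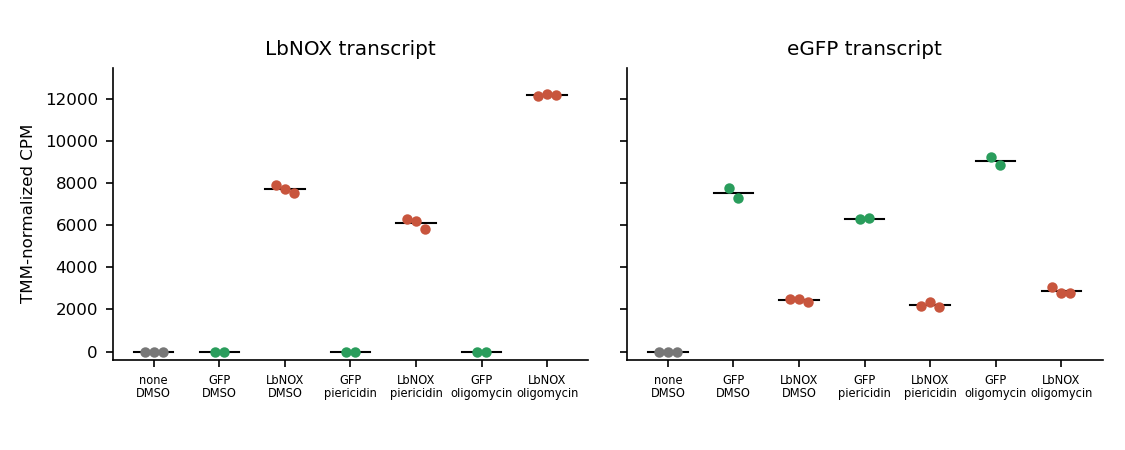
LbNOX (left) and eGFP (right) transcript in each myotube library, in TMM-normalized CPM on a linear axis; points are libraries, black lines group means, and the columns give the virus (none, GFP or LbNOX) and the treatment. LbNOX lies at 0 in all libraries without its virus, and the eGFP level of the LbNOX libraries lies below that of the GFP libraries under each treatment.

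Among the cells' own genes, 1 passed the test. Of 12397 genes tested with edgeR in a fit of the 15 transduced myotube samples, 3 (0.0242%) had an adjusted p under 0.05, and these were LbNOX, eGFP and Ndrg1. Ndrg1 (N-myc downstream regulated 1, a gene known to be induced by low oxygen and by differentiation) stood at 194 and 201 CPM with GFP and at 295, 335 and 272 CPM with LbNOX. All 3 LbNOX libraries lay above both GFP libraries and above the 3 untransduced libraries, which held 182, 184 and 232 CPM. Ndrg1, which lies on chr15:66929318-66969640 of GRCm38 on the minus strand, rose 1.53-fold with LbNOX (log2 fold change 0.61, SE 0.082, 95% interval 0.43 to 0.78, edgeR adjusted p = 0.0121). The call depended on the GFP libraries. With GFP replicate 1 left out the log2 fold change was 0.58 and the edgeR adjusted p 0.423, and with GFP replicate 2 left out they were 0.64 and 0.135. A fit of the 5 samples alone gave 0.61 and an adjusted p of 0.217.

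The remaining genes could be bounded rather than called. The 95% interval of the difference between LbNOX and GFP lay within a 2-fold change in either direction for 10242 genes (82.6%), within 1.5-fold for 7655 (61.7%) and within 1.25-fold for 3994 (32.2%). Without adjustment, 748 genes (6.03%) had a p under 0.05, 407 of them higher (3.28%) and 341 lower (2.75%). The median log2 fold change over all genes was 0.00, and 50.9% of genes lay above 0. The 3 LbNOX libraries were all above the 2 GFP libraries for 9.3% of genes and all below them for 11.7%. These shares are the background for the counts in gene lists given below, in which a member was called only if it passed the adjusted test over all genes.

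The genes that handle cytosolic NADH differed little. Of 21 tested genes for NADH shuttles and for lactate or pyruvate handling, 0 were called by edgeR, 3 were higher and 1 was lower at an unadjusted p under 0.05, 9 had a log2 fold change above 0, and the median was -0.01. Slc16a3, the lactate exporter MCT4, stood at 41.2 and 48.5 CPM with GFP and at 56.3, 57.3 and 51.5 CPM with LbNOX, without overlap (log2 fold change 0.30, SE 0.11, edgeR adjusted p = 0.804). The other members higher at the unadjusted threshold were Bsg, the chaperone of that transporter (0.17), and Ldha, the muscle subunit of lactate dehydrogenase (0.15). The member lower at that threshold was Slc25a11, the mitochondrial oxoglutarate carrier of the malate-aspartate shuttle (-0.13). For other enzymes and carriers fixed for naming the intervals included 0. The 95% interval ran from -0.17 to 0.07 for Mdh1 (cytosolic malate dehydrogenase), from -0.21 to 0.06 for Got1 (cytosolic aspartate aminotransferase), from -0.08 to 0.25 for Slc25a12 (a mitochondrial aspartate-glutamate carrier) and from -0.23 to 0.24 for Ldhb (the heart subunit of lactate dehydrogenase). For the glycerol-3-phosphate dehydrogenases it was -0.34 to 0.41 for cytosolic Gpd1 and -0.30 to 0.24 for mitochondrial Gpd2, and for the monocarboxylate transporter Slc16a1 it was -0.19 to 0.67. Slc25a13, the other aspartate-glutamate carrier, was too low to be tested.

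HIF target genes were, of the 24 lists examined, the one with the largest share of members above 0. The lists and their members were chosen with earlier results of these data known, so this rank is a description only. All 22 listed genes were tested, and all 22 had a log2 fold change above 0, with a median of 0.40 against 0.00 over all genes. At the unadjusted threshold 15 of the 22 were higher and 0 lower, and in 15 the LbNOX libraries all lay above the GFP libraries (background 3.28% and 9.3%). After adjustment over all genes Ndrg1 alone was called. Averaged as log2(CPM + 1) over the 22 genes, the level was 5.46 and 5.62 in the GFP libraries, 5.96, 6.004 and 5.78 in the LbNOX libraries, and 5.22, 5.42 and 5.595 in the untransduced libraries. The lowest LbNOX library thus lay above the highest library without LbNOX. For 12 of the 22 genes every LbNOX library lay above every GFP and every untransduced library. The share of all genes with this order was not counted. Most members also ranked the libraries of one group alike, a pattern whose share over all genes was not counted. LbNOX replicate 3 was the lowest LbNOX library for 19 of 22 genes, GFP replicate 1 lay below GFP replicate 2 for 19, and untransduced replicate 1 was the lowest of its group for 19. With well position as a covariate 19 of 22 genes lay above 0, with a median of 0.34. Leaving out 1 of the 5 libraries in turn left 20 or 21 of the 22 genes above 0. Leaving out GFP replicate 2 raised the median to 0.57, and leaving out GFP replicate 1 lowered the number at the unadjusted threshold to 8.

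**Figure D2:**
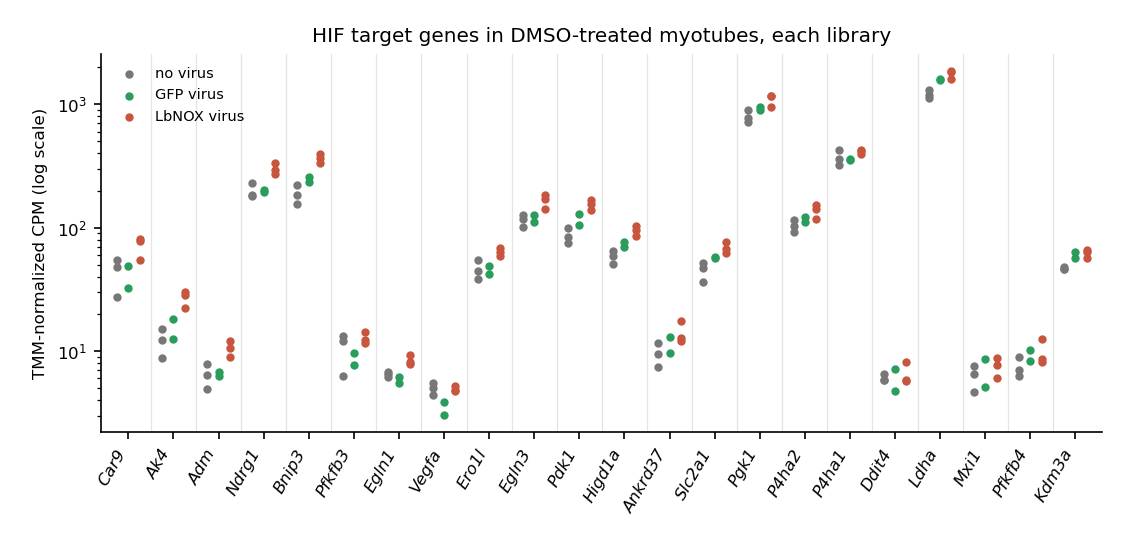
Level of each of the 22 HIF target genes in the DMSO-treated myotubes, in TMM-normalized CPM on a log axis; each point is 1 library without virus (grey), with GFP virus (green) or with LbNOX virus (red), and genes are ordered by their log2 fold change between LbNOX and GFP. CPM is not scaled to gene length, so levels compare libraries within a gene. For 12 genes all red points lie above all grey and green points, a pattern not counted over all genes.

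Among the HIF targets, genes of mitochondrial and pyruvate metabolism stood as follows. Bnip3, a mitophagy receptor of the outer mitochondrial membrane, held 235 and 258 CPM with GFP and 370, 396 and 334 CPM with LbNOX, without overlap (log2 fold change 0.58, SE 0.13, edgeR adjusted p = 0.390). Pdk1, a kinase that inhibits pyruvate dehydrogenase, held 105 and 129 CPM with GFP and 155, 168 and 140 CPM with LbNOX (0.41, SE 0.098, edgeR adjusted p = 0.529). Its groups did not overlap either. Ak4, a mitochondrial adenylate kinase, held 12.6 and 18.4 CPM with GFP and 30.0, 28.5 and 22.2 CPM with LbNOX (0.80, SE 0.22, edgeR adjusted p = 0.621). Higd1a, a small mitochondrial protein induced by hypoxia, held 69.5 and 76.2 CPM with GFP and 96.2, 103 and 86.1 CPM with LbNOX (0.39, SE 0.095). None of these 4 genes passed the adjusted edgeR test in this comparison. All 4 had LbNOX libraries entirely above the GFP libraries, as did 15 of the 22 HIF targets and 9.3% of all genes. All 4 are among the HIF targets called in the average over treatments given below, which includes these libraries.

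The other HIF targets ranged from a log2 fold change of 0.04 to 0.83. Car9, a cell-surface carbonic anhydrase that is among the most oxygen-sensitive HIF targets, held 32.2 and 48.6 CPM with GFP and 81.0, 77.9 and 55.0 CPM with LbNOX (0.83, SE 0.27, edgeR adjusted p = 0.804). The spread within each group was wide, and leaving out 1 library moved its log2 fold change between 0.56 and 1.16. Egln3, an oxygen-sensing prolyl hydroxylase that is itself a HIF target, held 112 and 126 CPM with GFP and 170, 185 and 141 CPM with LbNOX (0.48, SE 0.13). Ero1l, which oxidizes protein thiols in the endoplasmic reticulum, held 42.5 and 48.8 CPM with GFP and 63.2, 68.4 and 59.4 CPM with LbNOX (0.49, SE 0.099, edgeR adjusted p = 0.325). Both were higher in every LbNOX library than in every GFP library. P4ha1, the catalytic subunit of collagen prolyl hydroxylase, held 354 and 364 CPM with GFP and 419, 427 and 398 CPM with LbNOX (0.21, SE 0.049, edgeR adjusted p = 0.390). The low-count members Adm, Egln1, Pfkfb3 and Vegfa had log2 fold changes of 0.52 to 0.70 with SEs of 0.22 to 0.38. At the lower end lay Ddit4 (0.15), Ldha (0.15), Mxi1 (0.14), Pfkfb4 (0.09) and the histone demethylase Kdm3a (0.04), whose LbNOX and GFP libraries overlapped. DESeq2, the tool used by the authors, run here without shrinkage, called 18 genes (0.145%) in all, and 6 of them were HIF targets: Bnip3, Egln3, Ero1l, Ndrg1, P4ha1 and Pdk1.

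The promoters of 4 of these genes are shown because they are the HIF targets that passed the test when the 3 treatments were averaged, as described below, and have an upstream window outside the annotated gene. HIF binds the hypoxia response element, whose core is ACGTG or GCGTG. Each sequence is the stretch that ends at the start of the annotated gene, taken from the 250 bases upstream of the RefSeq start in GRCm38.p6 and written 5′ to 3′ on the gene's strand. Capitals mark ACGTG and GCGTG on either strand (CACGT and CACGC on the other), and CACGTG holds 2 overlapping matches to ACGTG, 1 per strand.
Bnip3, chr7:138909520-138909756, minus strand: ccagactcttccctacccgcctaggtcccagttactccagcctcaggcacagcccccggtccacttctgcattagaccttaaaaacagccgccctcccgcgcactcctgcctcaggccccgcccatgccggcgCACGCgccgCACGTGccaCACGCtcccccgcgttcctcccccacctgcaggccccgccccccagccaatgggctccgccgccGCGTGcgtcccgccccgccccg
Pdk1, chr2:71872974-71873223, plus strand: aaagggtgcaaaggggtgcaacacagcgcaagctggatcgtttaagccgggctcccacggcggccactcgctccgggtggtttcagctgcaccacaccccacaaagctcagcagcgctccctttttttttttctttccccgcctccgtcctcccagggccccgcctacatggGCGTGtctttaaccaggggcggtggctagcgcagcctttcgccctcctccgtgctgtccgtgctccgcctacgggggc
P4ha1, chr10:59323046-59323295, plus strand: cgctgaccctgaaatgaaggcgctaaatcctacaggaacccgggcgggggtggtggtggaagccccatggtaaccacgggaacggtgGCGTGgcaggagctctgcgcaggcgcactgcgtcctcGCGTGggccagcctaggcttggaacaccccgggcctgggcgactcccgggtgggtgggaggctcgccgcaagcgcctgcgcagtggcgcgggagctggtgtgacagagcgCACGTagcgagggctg
Ak4, chr4:101419039-101419276, plus strand: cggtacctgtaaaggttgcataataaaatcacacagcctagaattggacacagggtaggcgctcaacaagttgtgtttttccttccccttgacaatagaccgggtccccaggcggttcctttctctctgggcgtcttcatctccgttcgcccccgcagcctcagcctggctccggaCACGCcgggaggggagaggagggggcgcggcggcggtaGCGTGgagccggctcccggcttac

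The cores were present in each of the 4 sequences. The Bnip3 sequence held 2 overlapping matches to ACGTG and 3 to GCGTG, the P4ha1 sequence 1 and 2, the Pdk1 sequence 0 and 1, and the Ak4 sequence 0 and 2. A RefSeq promoter window was at hand for 20 of the 22 HIF targets, Ndrg1 and Ero1l not being among them. In their 250 upstream bases 12 of the 20 held ACGTG and 13 held GCGTG. Of the 27025 promoters of the same length in RefSeq, 16.5% held ACGTG, 28.3% held GCGTG and 38.6% held either. A match is a description of the sequence and does not show that a factor binds there.

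LbNOX and GFP were also compared under piericidin and under oligomycin, each in 3 and 2 further libraries that shared no sample with the DMSO comparison. Under each inhibitor edgeR called LbNOX and eGFP and no gene of the cells (0.0161% of the 12397 genes tested). At the unadjusted threshold 637 genes (5.14%) stood apart under piericidin and 807 (6.51%) under oligomycin. For Ndrg1 the levels under piericidin were 105 and 87.8 CPM with GFP and 95.9, 97.5 and 97.8 CPM with LbNOX. Under oligomycin they were 190 and 197 CPM with GFP and 196, 186 and 190 CPM with LbNOX. The groups overlapped under both inhibitors, with log2 fold changes of 0.00 and -0.03. The difference between the LbNOX effects was tested as an interaction. It was -0.61 for piericidin and -0.64 for oligomycin, with edgeR adjusted p-values of 0.93 and 0.82, while DESeq2 called Ndrg1 in both interactions. Over all genes edgeR called 0 interactions for either inhibitor, with 567 (4.57%) and 525 genes (4.23%) at an unadjusted p under 0.05, and DESeq2 called 2 and 1.

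The HIF targets were also described under the inhibitors. Under piericidin 15 of 22 members lay above 0 (49.7% of all genes) with a median of 0.12, and 8 were higher at the unadjusted threshold, which 2.82% of all genes passed. Under oligomycin 15 of 22 lay above 0 (48.7% of all genes) with a median of 0.15, and 7 were higher at that threshold, which 3.39% of all genes passed. In the interactions with DMSO edgeR called 0 of the 22 for either inhibitor, as it did over all genes. The median of the difference was -0.18 for piericidin and -0.12 for oligomycin, and 2 and 4 members, all with a lower log2 fold change than with DMSO, had an unadjusted p under 0.05 (4.57% and 4.23% of all genes). They were Ndrg1 and Ero1l for both inhibitors, with Slc2a1 and Egln1 for oligomycin, and are named after their values were seen. The averaged level of the 22 genes was 4.71 and 4.75 with GFP and 4.85 to 4.93 with LbNOX under piericidin, and 4.78 and 4.83 with GFP and 4.95 to 5.02 with LbNOX under oligomycin, all as log2(CPM + 1). The LbNOX and GFP libraries did not overlap under either inhibitor, and all 10 libraries lay below the lowest GFP library with DMSO.

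**Figure D3:**
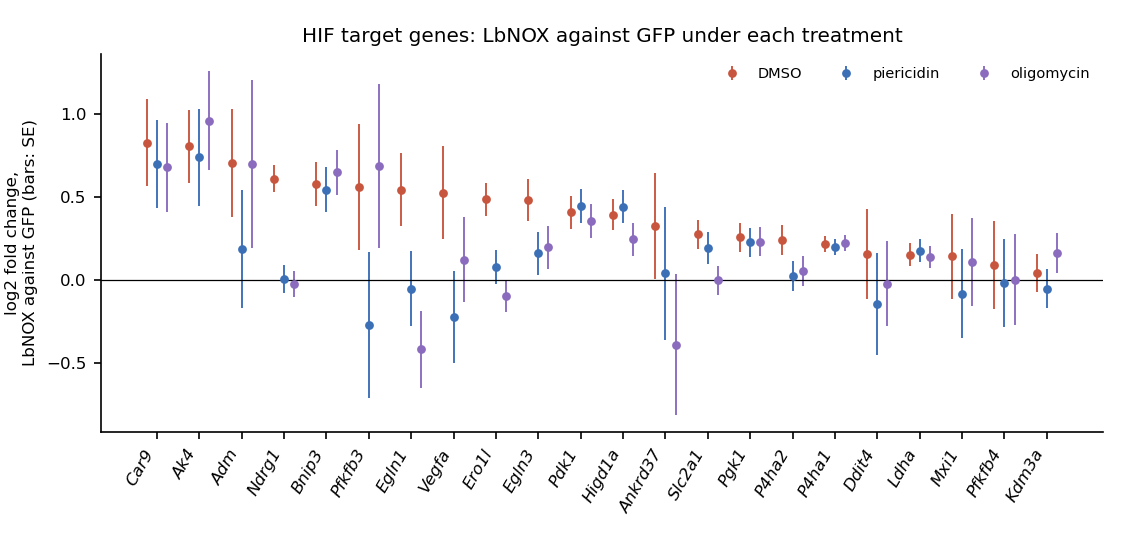
Log2 fold change between LbNOX and GFP for each HIF target gene in myotubes treated with DMSO (red), piericidin (blue) or oligomycin (purple); points are edgeR estimates from 3 against 2 libraries and bars their SE. All 22 red points lie above 0, and Bnip3, Pdk1, P4ha1, Higd1a, Car9 and Ak4 lie above 0 under all 3 treatments, whereas Ndrg1 does so by more than its SE under DMSO alone.

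Several genes had similar LbNOX effects under all 3 treatments. Bnip3 had log2 fold changes of 0.58, 0.54 and 0.65 under DMSO, piericidin and oligomycin, Pdk1 of 0.41, 0.44 and 0.36, and P4ha1 of 0.21, 0.20 and 0.22. Averaging the effect over the treatments, a contrast added after the data were seen and one that includes the DMSO libraries, gave 47 called genes (0.379%), 38 higher (0.307%) and 9 lower (0.0726%), of which 45 were genes of the cells. The HIF targets called were Bnip3 (0.59, edgeR adjusted p = 0.00622), P4ha1 (0.21, 0.00622), Pdk1 (0.40, 0.00948), Higd1a (0.36, 0.0157) and Ak4 (0.83, 0.0343). The average effect on Ndrg1 was 0.20, with an edgeR adjusted p of 0.135. These and the further genes named for this average were chosen after their values were seen.

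Glycolytic enzymes were described next. Of 21 tested genes 0 were called by edgeR with DMSO, 18 lay above 0, 9 were higher at the unadjusted threshold and 0 lower, and the median was 0.16. Between GFP virus and no virus, which shares the GFP libraries, 18 of the 21 also lay above 0 (47.1% of all genes). The median there was 0.16, and 4 were called higher, against 4.92% of all genes called in either direction. Hk2, the inducible muscle hexokinase that commits glucose to metabolism, held 55.7 and 56.7 CPM with GFP and 78.8, 74.2 and 68.1 CPM with LbNOX, without overlap (log2 fold change 0.40, SE 0.068, edgeR adjusted p = 0.126). In the average over treatments 4 of the 21 glycolytic genes were called higher, as were 0.307% of all genes. They were Pfkl, the liver-type phosphofructokinase (0.33, edgeR adjusted p = 0.0160), Hk2 (0.20, 0.0337), Eno1, the ubiquitous enolase (0.19, 0.0296), and Pgam1, a phosphoglycerate mutase (0.17, 0.0214). The muscle isoforms of the same steps are given for DMSO alone, a contrast other than the average. Their values were 0.01 for Pfkm, -0.01 for Eno3 and -0.04 for Pgam2, and a difference between isoforms was not tested. Several glycolytic genes have near-identical pseudogenes, between which transcript quantification can divide reads, so single values for Eno1, Pgam1, Ldha and Pgk1 are less certain. Of 7 tested targets and partners of MondoA, a sensor of sugar phosphates, 6 lay above 0, 3 were higher at the unadjusted threshold, 0 were called by edgeR, and the median was 0.40. Txnip, the glucose-induced inhibitor of glucose uptake in that list, held 21.2 and 21.4 CPM with GFP and 27.4, 24.7 and 32.3 CPM with LbNOX (0.40, SE 0.14, edgeR adjusted p = 0.804). Its relative Arrdc4 was too low to be tested. These lists share genes, so their counts are not separate results. Hk2 and Pfkfb3 are 2 of the 7 MondoA genes (28.6%) and of the 21 glycolytic genes (9.52%), Pfkfb3 is also a HIF target, and Pfkfb3, Pfkfb4, Pgk1 and Slc2a1 are 4 of the 21 glycolytic genes (19%) and of the 22 HIF targets (18.2%).

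Genes that make or use NAD were not called. Of 21 tested, 5 lay above 0, 2 were higher and 1 lower at the unadjusted threshold, and the median was -0.09. Nampt, the rate-limiting enzyme of NAD salvage, held 38.6 and 40.5 CPM with GFP and 44.7, 54.3 and 49.0 CPM with LbNOX (0.33, SE 0.087, edgeR adjusted p = 0.600). Nmrk2, a nicotinamide riboside kinase of muscle, held 18.6 and 18.03 CPM with GFP and 14.8, 14.1 and 13.3 CPM with LbNOX (-0.37, SE 0.12, edgeR adjusted p = 0.804). The groups did not overlap for either gene. The NAD-dependent deacetylase Sirt1 was at 2.36 and 2.42 CPM with GFP and 1.93 to 2.24 CPM with LbNOX, with an interval of -0.95 to 0.60, and Nmnat3, an NAD synthase of low level, had an interval of -1.10 to 0.51.

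Genes of the integrated stress response (ISR) did not pass the test. The ISR acts in part through the transcription factor ATF4 and can be triggered by mitochondrial stress. Of 36 tested ISR genes 0 were called by edgeR, 14 lay above 0, 0 were higher and 6 lower at the unadjusted threshold (background 2.75%), and the median was -0.02. Atf4 held 188 and 187 CPM with GFP and 179, 187 and 189 CPM with LbNOX, with an interval of -0.11 to 0.09. The other ATF4-linked genes fixed for naming were Ddit3, the transcription factor CHOP (-0.20, interval -0.37 to -0.02), Asns, asparagine synthetase (0.10, -0.04 to 0.24), Phgdh, the first enzyme of serine synthesis (0.05, -0.06 to 0.15), and the secreted factors Gdf15 (0.22, -0.13 to 0.58) and Fgf21 (-0.17, -0.31 to -0.03). Atf3, a stress-induced transcription factor, held 5.40 and 4.84 CPM with GFP and 3.85, 3.21 and 3.04 CPM with LbNOX (-0.60, SE 0.17, edgeR adjusted p = 0.691), without overlap and at low counts. Cytosolic tRNA synthetases, which ATF4 also induces, had 0 called and 3 lower of 20, with a median of -0.02.

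The remaining lists held no called member. The NRF2 list, genes of the antioxidant response, had 2 lower of 29, with a median of -0.01, and its members Nqo1 and Hmox1 had log2 fold changes of -0.07 and 0.04. Interferon-stimulated and viral sensing genes, which can respond to adenovirus, had 0 higher and 0 lower of 21, while 22 others were too low to be tested, among them Isg15 and Ifit1. Sterol and fatty acid synthesis genes had 6 lower and 0 higher of 32, with 5 of 32 above 0 and a median of -0.10. Sarcomere and contraction genes had 10 higher and 1 lower of 46 and a median of 0.04. Of the muscle genes fixed for naming, the embryonic myosin Myh3 was at 0.11 and the muscle creatine kinase Ckm at -0.10, and Myog, the myogenic regulator of fusion, was at 0.01 with an interval of -0.10 to 0.11. Extracellular matrix and undifferentiated cell genes had 6 higher and 0 lower of 19, with 17 of 19 above 0 (median 0.06). FOXO and atrophy genes had 3 higher and 0 lower of 16 (median 0.02), p53 targets 3 and 0 of 22 (0.05), heat shock and mitochondrial chaperones 1 and 4 of 19 (-0.03), and proliferation genes 0 and 2 of 28 (-0.12). The other lists were those of fatty acid oxidation, mitochondrially encoded transcripts, NF-kB, the clock, myogenic factors, ER chaperones, immediate early genes and serine and one-carbon enzymes, and each had at most 1 member on either side at the unadjusted threshold. Pdk4, the fatty acid-induced pyruvate dehydrogenase kinase, was at -0.08 with an interval of -0.29 to 0.12.

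**Figure D4:**
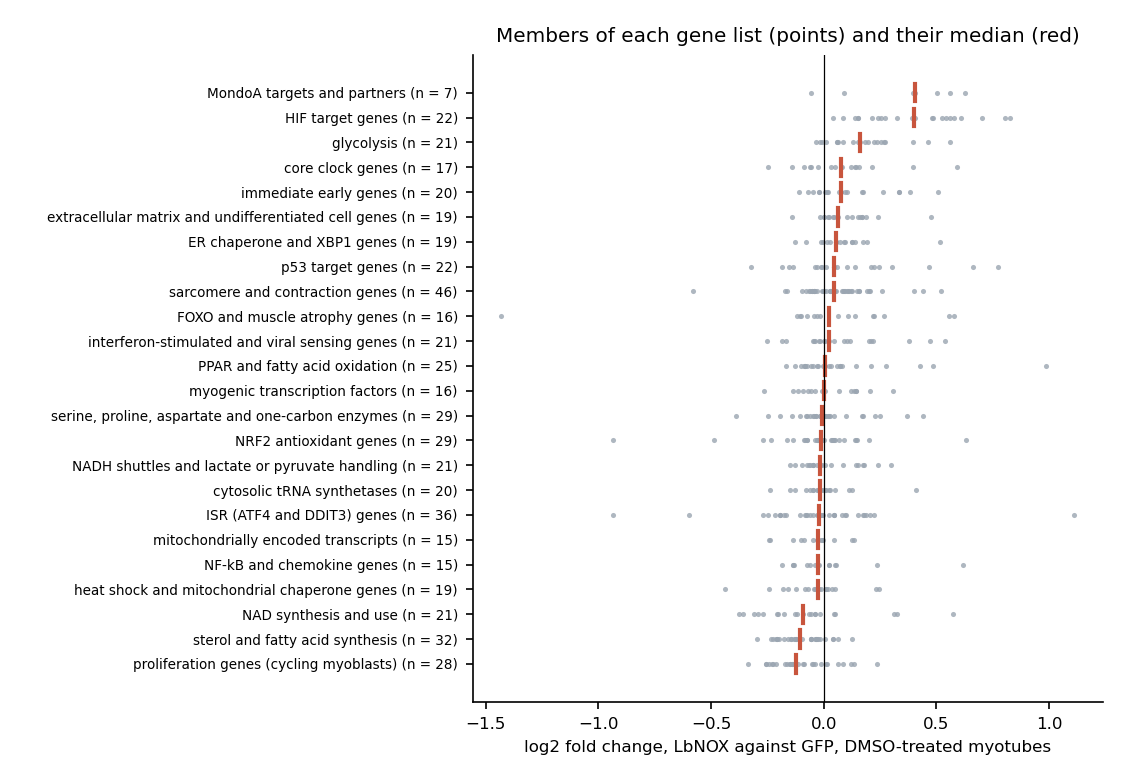
Log2 fold change between LbNOX and GFP in DMSO-treated myotubes (horizontal axis) for the tested members of each of the 24 gene lists (grey points, with the number tested in brackets) and their median (red line). The medians of the MondoA and HIF lists lie at 0.40, that of glycolysis at 0.16, and the others between -0.12 and 0.08.

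For some genes that differed in the treatment average, the GFP libraries lay apart from the untransduced libraries. The untransduced DMSO-treated myotubes allow the values of the same gene with no virus, GFP virus and LbNOX virus to be set side by side, although the comparisons share libraries. Mybph, a myosin-binding protein of thick filaments, held 1533, 1613 and 1593 CPM with no virus, 831 and 817 CPM with GFP and 976, 971 and 884 CPM with LbNOX. Myh7, the slow myosin heavy chain, held 133, 163 and 168 CPM with no virus, 113 and 104 CPM with GFP and 153, 154 and 132 CPM with LbNOX. The LbNOX libraries of Mybph lay between the other groups, and those of Myh7 reached the untransduced range. Casq2, the cardiac and slow-muscle calsequestrin, H19, an imprinted noncoding RNA, and Adamts14, a procollagen peptidase, also had LbNOX libraries between the untransduced and the GFP libraries. Over all 45 genes of the cells called in the treatment average, the LbNOX mean with DMSO lay between the other means for 21, above both for 21 and below both for 3.

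For 2 of the genes that were higher with GFP virus, LbNOX lay nearer to no virus. Sqstm1, the autophagy receptor p62, held 790, 785 and 779 CPM with no virus, 915 and 898 CPM with GFP and 819, 855 and 797 CPM with LbNOX. Scd1, the stearoyl-CoA desaturase, held 351, 334 and 369 CPM with no virus, 483 and 433 CPM with GFP and 398, 400 and 389 CPM with LbNOX. The LbNOX libraries of both genes lay between the other groups. In the treatment average Mybph (0.24, edgeR adjusted p = 0.00622), Myh7 (0.41, 0.00253) and Casq2 (0.18, 0.00637) rose with LbNOX, and Sqstm1 (-0.15, 0.00741) and Scd1 (-0.19, 0.0218) fell. The eGFP transcript moved with these genes, at 0 in untransduced cells, 7280 to 7781 CPM with GFP and 2343 to 2515 CPM with LbNOX, and its part in the result was not tested. GFP against no virus gave 590 called genes (4.92% of 11983), and the count ran from 259 without untransduced replicate 2 to 873 without GFP replicate 2. LbNOX against no virus, a comparison added after the data were seen, gave 703 (5.87%), from 288 without LbNOX replicate 2 to 448 without LbNOX replicate 3. Both comparisons share the untransduced libraries, and the difference between the counts was not tested.

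**Figure D5:**
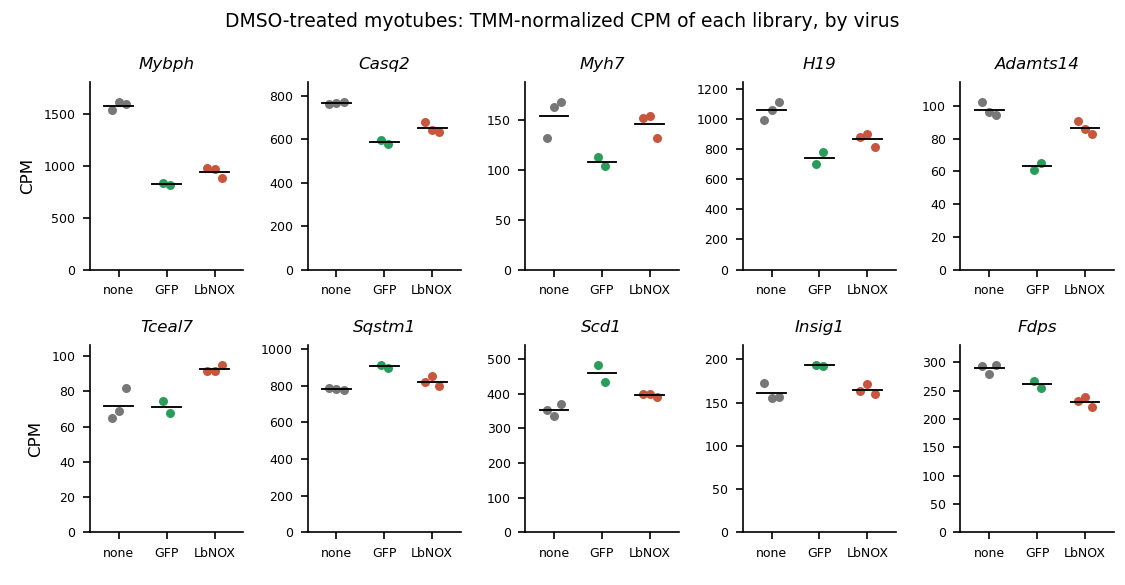
TMM-normalized CPM (linear axes from 0) of 10 genes in DMSO-treated myotubes with no virus (grey), GFP virus (green) or LbNOX virus (red); points are libraries and black lines group means. The 10 genes were chosen after their values were seen. In 8 of the panels the LbNOX mean lies between the other means, in Tceal7 it lies above both, and in Fdps below both.

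For Fdps and Tceal7 the LbNOX libraries differed in the same direction from both controls. Fdps, the farnesyl diphosphate synthase of the sterol pathway, held 294, 280 and 296 CPM with no virus, 268 and 256 CPM with GFP and 231, 240 and 221 CPM with LbNOX. Tceal7, a transcription elongation factor-like gene expressed in differentiating muscle, held 64.7, 68.6 and 81.8 CPM with no virus, 74.7 and 67.6 CPM with GFP and 91.4, 91.4 and 95.1 CPM with LbNOX. The LbNOX libraries lay outside the range of both other groups in each case. In the treatment average 4 of 32 sterol and fatty acid synthesis genes were called lower (0.0726% of all genes) and 0 higher (0.307% of all genes). They were Fdps (-0.17, edgeR adjusted p = 0.00988), Scd1, Insig1 (-0.22, 0.0218) and Cyp51 (-0.21, 0.0405). With DMSO the LbNOX means of Fdps and Cyp51 lay below both other means, and those of Scd1 and Insig1 lay between them. Of the HIF targets, 21 of 22 had a LbNOX mean above both the GFP mean and the untransduced mean, a pattern not counted over all genes. Between GFP virus and no virus, 14 of the 22 members lay above 0 (47.1% of all genes), and the median was 0.14. In that comparison 2 of the 22 were called, as were 4.92% of all genes. They were Ldha (0.39, edgeR adjusted p = 0.00633) and Kdm3a (0.37, 0.0281).

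The last comparison sets myotubes beside myoblasts, in which LbNOX was compared with luciferase. These were 6 further DMSO-treated libraries, from stable lines with doxycycline-inducible transgenes carried by lentivirus, so the state of the cells, the vector, the control protein and the level of LbNOX (934 ± 32.6 CPM in myoblasts, SD, n = 3) all differed and cannot be told apart. LbNOX against luciferase gave 219 called genes of 12407 (1.77%), 94 higher and 125 lower, and 95 genes without luciferase replicate 3 to 133 without luciferase replicate 1. The LbNOX effect differed between myotubes and myoblasts by an interaction test at 37 genes (0.298%), 17 with the larger value in myotubes and 20 with the larger value in myoblasts. That count ran from 17 without GFP myotube replicate 1 to 36 without LbNOX myoblast replicate 3. Of the 10 genes named by the fixed rule, Igfbp4, Mgp, Igfbp5, Col18a1 and Klhl13 were called in each of the 11 fits without 1 library, and Nptx1, Crabp2, Bmp4, Erbb3 and Col6a2 were not. In each of the 10 the myotubes had log2 fold changes within -0.06 to 0.34 and the myoblasts the larger change.

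Examples show the levels behind these differences. Igfbp4, which binds insulin-like growth factors, held 4.79, 7.17 and 5.98 CPM in luciferase myoblasts and 0.54, 0.94 and 1.57 CPM in LbNOX myoblasts, but 128 and 120 CPM in GFP myotubes and 134, 122 and 122 CPM in LbNOX myotubes. The groups were apart in myoblasts and overlapped in myotubes, with log2 fold changes of -2.60 and 0.03. Klhl13, a ubiquitin ligase adaptor, held 9.48, 8.12 and 9.85 CPM in luciferase myoblasts and 38.7, 34.4 and 31.1 CPM in LbNOX myoblasts, against 30.7 and 27.4 CPM in GFP myotubes and 32.0, 32.1 and 33.6 CPM in LbNOX myotubes. Its log2 fold changes were 1.92 and 0.17. The HIF targets in myoblasts had 15 of 22 members above 0 (46.9% of all genes) and a median of 0.10. Of the 22, 1 was called, Pdk1 (0.75, edgeR adjusted p = 0.0460), against 1.77% of all genes. The interaction called 0 of the 22 HIF targets, against 0.298% of all genes. Ndrg1 had a log2 fold change of 0.01 in myoblasts.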

How the data were processed

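RNA was measured by Smart-seq2 from polyA-selected RNA, without strand information. The authors quantified reads with kallisto 0.44 (GRCm38 Ensembl transcripts with transgenes added) and summed them to genes; bcl2fastq 2.20.0.422 is named in the submitters' processing notes. The deposited values are estimated counts, whole and unnormalized, for 54146 genes and 4 transgenes.

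Samples were grouped by their labels. The quasi-likelihood F test of edgeR 4.0.16 (R 4.3.3, TMM) was fitted to the 15 transduced myotube libraries. Genes needed 16 or more counts in all replicates of some condition. P-values were Benjamini-Hochberg adjusted over all genes tested (threshold 0.05). An SE is the absolute log2 fold change over the square root of F. Fits of 11 and 8 libraries gave the myoblast and untransduced comparisons. CPM are TMM-scaled. Without molecular identifiers, floors cover counting error only.

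Named genes were called genes by size, called list members (up to 4 a list), a fixed set of redox, stress, muscle and antiviral genes, and up to 5 genes a direction for the difference from myoblasts. The genes chosen by size needed a mean of at least 50 counts and, in the first case, no overlap between groups or, for the difference from myoblasts, no overlap between the LbNOX effects over pairs of libraries. Other genes were named after their values were seen. Members and lists were chosen with earlier results of these data known, and 566 of 571 list genes were in the table. Alternatives were DESeq2 1.42.0, its size factors, other filters, the replicate block, well position, other sample sets and leaving out each library. The test was checked on simulated data. Of 21 replicate pairs 0 were identical. Sequences are from RefSeq (GRCm38.p6).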

Additional observations from a re-analysis of the deposited data

Results flagged for a closer look

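The LbNOX effect differed between DMSO-treated myotubes and myoblasts at 37 genes by an edgeR interaction test, in 3 against 2 and 3 against 3 libraries. The cell state, vector, control protein and LbNOX level differed between the myotube and myoblast samples and cannot be told apart. As the log2 fold change in myotubes minus that in myoblasts, the difference was 2.63 for Igfbp4, 1.53 for Nptx1, 1.10 for Mgp, 1.08 for Igfbp5 and 1.07 for Col18a1, genes that were lower with LbNOX in myoblasts. It was 0.86 for H19, which was named after its value was seen. It was -0.90 for Crabp2, -1.07 for Bmp4, -1.49 for Erbb3, -1.75 for Klhl13 and -1.96 for Col6a2, genes that were higher with LbNOX in myoblasts. Of the 11 fits that each left out 1 library, Nptx1 lost its call in 8, Crabp2 in 7, Bmp4 in 6, Erbb3 in 9 and Col6a2 in 8. Col6a2 lost it without any 1 of the 5 myotube libraries, and Crabp2 and Erbb3 also lost it with the replicate block. The other genes named here were called in all 11.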

How the results depend on the processing

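No called value of LbNOX against GFP with DMSO changed sign under an alternative. Among values that were not called, leaving out 1 library turned the sign of 20 of 77 named genes (Mxi1 from -0.19 to 0.57, Ddit4 from -0.12 to 0.49, Nmnat3 from -0.82 to 0.51) and of 11 of 24 list medians. In that comparison, over 77 named genes and their alternatives, 1079 of 1152 values kept their side of the threshold, 5 lost a call, 51 gained one and 17 that were not called changed sign by more than their SE. The 5 calls lost there were of Ndrg1: without either GFP replicate, in the 5 samples alone (0 list members called), with untransduced myotubes added (0 list members called, edgeR adjusted p = 0.0525) and in the average over treatments. The number of GFP libraries, 2, limits the precision of each fold change. Without a count filter the prior degrees of freedom of the 15-library fit became infinite (5.11 with the filter), so a gene's own spread was not used there, and the calls of that fit rose to 189 (165 of them past the filter, 24 not), to 178 under piericidin and 130 under oligomycin, to 261 and 197 for the interactions, and to 20 named genes and 26 list members. In the other fits they rose to 527 in myoblasts, 204 for the difference between states and 1007 for GFP against no virus; the cause was not tested there. DESeq2 called 18, 14 under piericidin, 28 under oligomycin, 2 and 1 interactions, 15 named genes, 9 list members and 102 genes that differed between states; the cause was not tested. Leaving out the transgene rows left 1 call with DMSO and 1 named gene, and 0 under either inhibitor, by construction. The average over treatments, added after the data were seen, called 47 genes, 22 named genes and 18 list members, and gave a HIF median of 0.17.

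The replicate block called 5 genes (Bnip3 and Myh7 were added), 7 under oligomycin, 5 named genes and 3 list members. The replicate numbers do not pair the samples. The deviations of same-numbered samples had a mean correlation of -0.05 over 33 pairs, against 0.03 over 60 pairs with different numbers, and 7 of the 33 were over 0.1. Leaving out 1 library gave 0 to 1 list members called, a HIF median of 0.34 to 0.57, 8 to 15 HIF targets at the unadjusted threshold, 17 to 36 genes for the difference between states, 95 to 133 in myoblasts and 259 to 873 for GFP against no virus and 288 to 448 for LbNOX against no virus. For the difference between states it ended the calls of Nptx1, Crabp2, Bmp4, Erbb3 and Col6a2 in 6 to 9 of 11 fits, and the replicate block ended those of Crabp2 and Erbb3. The LbNOX difference, taken against libraries at 0, was 12.93 on log2(CPM + 1) and 16.25 with DESeq2-normalized counts, and so depends on the unit.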
